A study of Mus musculus with 4 samples.

Results

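HOX genes encode homeodomain transcription factors that lie in the HoxA, HoxB, HoxC and HoxD clusters of the mouse genome. Within a cluster they are numbered by paralogue, and low numbers are used further towards the head (anterior) and high numbers further towards the tail (posterior) in the embryo. Fibroblasts are known to keep much of the HOX pattern of the body site they came from when they are grown in culture, so that the set of HOX genes in use serves as a record of position. Expression of all HOX cluster genes was compared across 4 arrays of cultured mouse mammary fibroblasts. Members were the genes of the array's annotation named Hox, a cluster letter from a to d and a number, taken from probe sets that name 1 gene only, and each gene was read from its probe set with the highest mean over the 4 arrays. This gave 31 HOX genes of 12394 genes on the array, read from 37 probe sets. RefSeq lists 39 HOX cluster genes, and 8 of them were not analysed here.

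The study asked how Ets2, an ETS family transcription factor, acts in fibroblasts next to normal epithelium or next to epithelium that carries the polyoma middle T (PyMT) oncogene. The cells were fibroblasts of the mammary gland of FVB/N mice aged 9 weeks, separated by gravity from tissue of females and grown to the second passage in medium with serum. The groups were normal Ets2-present (Ets2db/loxP), normal Ets2-null (Fsp-cre;Ets2db/loxP), PyMT Ets2-present (PyMT;Ets2db/loxP) and PyMT Ets2-null (PyMT;Fsp-cre;Ets2db/loxP), with 1 array each. All groups carried the Ets2db allele, which lacks the DNA-binding domain, so the Ets2-present cells had a single intact copy, flanked by loxP sites. Cre was driven by the promoter of Fibroblast Specific Protein 1, which can also be active outside fibroblasts, and only the Ets2-null groups carried it, so that an effect of Cre and an effect of Ets2 loss cannot be told apart. PyMT was driven in the epithelium by the MMTV promoter. Which of the mammary gland pairs were used, and whether the RNA of an array came from 1 or more mice, is not given in the sources used here. Since every group is a single array, no spread between replicates can be given, and the differences below have neither an error nor a p-value. They compare arrays, and a difference in RNA per cell cannot be told apart from a difference in the share of cells that use a gene.

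Levels are log2 values of the deposited table, and differences are differences of these levels between arrays, where 1 unit is 2-fold. A gene was kept where its level reached 4.63 in at least 1 array, a filter level below which 40% of the values of the table lie. Ets2 itself was measured by 1 probe set, with levels of 11.86 in the normal Ets2-present, 11.89 in the normal Ets2-null, 11.21 in the PyMT Ets2-present and 11.22 in the PyMT Ets2-null array. The Ets2-null arrays were thus no lower than their Ets2-present partners. Whether this probe set lies in the deleted part of the gene is not given in the sources used here, so its level is no check of the labels. The paper itself checked the deletion at the protein level in the PyMT background. On its blots, fibroblasts with Cre no longer showed the ETS2 protein, and their cultures no longer stained for phosphorylated Ets2. That the same cultures went onto the arrays is not stated. All 16 of 16 fibroblast markers were kept, with a mean level from 11.2 to 11.6 over the arrays. Of 18 epithelial markers 5 were kept, and Cdh1, Krt7 and Krt8 were below the filter level in every array. The kept keratins differed between arrays, with Krt18 at 8.05, 6.72, 4.23 and 4.49 and Krt19 at 4.98, 4.39, 7.36 and 7.21 in the order of arrays given for Ets2. The correlation between arrays over all probe sets ran from 0.959 to 0.985 and was lowest for the PyMT Ets2-null array.

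The regulatory sequence next to a HOX start site is shown for those HOX genes that were at least 2-fold apart in any of the differences and that the RefSeq promoter table holds, since Ets2 is a factor that binds the ETS core letters GGAA. Of the 11 HOX genes that were 2-fold apart, 5 are in that table (18 of all 31 HOX genes are), and Hoxb2, Hoxb3, Hoxb5, Hoxb6, Hoxb9 and Hoxc13 are not. The sequences are RefSeq sequences of build GRCm38.p6, run 5′ to 3′ on the strand of the gene from 250 bases before to 50 bases after the start of a transcript, and capitals mark each GGAA and its reverse complement TTCC. They belong to Hoxa2 (chr6:52164782-52165081, minus strand), Hoxa3 (chr6:52213018-52213317, minus strand), Hoxb4 (chr11:96318017-96318316, plus strand), Hoxd9 (chr2:74697513-74697812, plus strand) and Hoxd10 (chr2:74691641-74691940, plus strand).
Hoxa2: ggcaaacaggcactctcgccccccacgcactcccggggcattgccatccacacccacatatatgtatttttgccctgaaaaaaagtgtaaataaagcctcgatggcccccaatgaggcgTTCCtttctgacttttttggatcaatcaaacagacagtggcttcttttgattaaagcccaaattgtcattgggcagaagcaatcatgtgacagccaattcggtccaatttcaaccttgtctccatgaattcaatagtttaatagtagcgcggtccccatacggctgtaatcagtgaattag
Hoxa3: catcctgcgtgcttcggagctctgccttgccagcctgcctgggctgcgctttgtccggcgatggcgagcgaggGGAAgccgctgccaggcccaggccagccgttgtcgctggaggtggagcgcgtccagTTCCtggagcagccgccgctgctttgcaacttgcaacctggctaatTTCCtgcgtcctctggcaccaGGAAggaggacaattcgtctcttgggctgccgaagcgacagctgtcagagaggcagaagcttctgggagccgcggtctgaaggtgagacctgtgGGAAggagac
Hoxb4: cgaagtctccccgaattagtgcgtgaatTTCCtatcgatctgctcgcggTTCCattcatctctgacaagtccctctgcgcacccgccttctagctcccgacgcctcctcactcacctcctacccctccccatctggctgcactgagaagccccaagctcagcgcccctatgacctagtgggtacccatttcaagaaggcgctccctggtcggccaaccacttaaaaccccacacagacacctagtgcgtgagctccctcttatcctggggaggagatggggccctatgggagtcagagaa
Hoxd9: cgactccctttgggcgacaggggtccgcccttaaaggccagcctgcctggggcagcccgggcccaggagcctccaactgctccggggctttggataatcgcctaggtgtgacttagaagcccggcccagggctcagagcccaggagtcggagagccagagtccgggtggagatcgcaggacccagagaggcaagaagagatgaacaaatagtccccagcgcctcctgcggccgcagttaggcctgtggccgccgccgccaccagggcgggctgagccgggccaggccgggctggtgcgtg
Hoxd10: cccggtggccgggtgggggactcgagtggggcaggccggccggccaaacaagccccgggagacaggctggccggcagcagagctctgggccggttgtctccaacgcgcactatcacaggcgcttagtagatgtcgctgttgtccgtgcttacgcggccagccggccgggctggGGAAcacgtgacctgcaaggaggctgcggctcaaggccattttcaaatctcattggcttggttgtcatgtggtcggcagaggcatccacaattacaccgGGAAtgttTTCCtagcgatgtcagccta
The ETS core occurred 5 times in the Hoxa3 window, 3 times in that of Hoxd10, 2 times in that of Hoxb4, 1 time in that of Hoxa2 and 0 times in that of Hoxd9. These letters are common. On either strand, GGAA was in 96.0% of the 32851 promoters of the same length, with a median of 3 matches, and in 18 of the 20 promoter windows of the 18 HOX genes, of which Hoxa10 and Hoxd11 have a second start site. The nuclear receptor half-site AGGTCA, through which retinoic acid receptors act on anterior HOX genes, was in 5 of 20 HOX windows against 16.3% of all promoters, and was found once each in those of Hoxb4 and Hoxd10. The joint HOX and PBX motif TGATNNAT was in 3 of 20 against 8.85% of all promoters, and once in the Hoxa2 window. No capital marks these other motifs, and none of them shares its letters with GGAA. The GC content of the windows was 45.7% for Hoxa2, 64.0% for Hoxa3, 58.0% for Hoxb4, 68.3% for Hoxd9 and 62.7% for Hoxd10, where the median of all promoters was 52.7%.

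Genes of every HOX cluster were kept, by a filter on low values that is no call of detection. Of 31 HOX genes, 22 (71.0%) reached the filter level, close to the 70.1% of all 12394 genes, and 15 of the 22 reached it in all 4 arrays. By cluster, 7 of 9 HoxA, 6 of 9 HoxB, 5 of 6 HoxC and 4 of 7 HoxD genes were kept. By position in the cluster, 4 of 6 anterior genes (paralogues 1 to 3), 10 of 12 central genes (4 to 8) and 8 of 13 posterior genes (9 to 13) were kept. The 9 genes below the filter level in every array included both paralogue 1 genes, Hoxd1 (highest level 3.34) and the hindbrain gene Hoxb1 (3.67). They also included the far posterior genes Hoxa13 (2.77), Hoxb13 (3.42), Hoxd12 (3.20) and Hoxd13 (3.93), which pattern digits, genitalia and tail. Hoxa11 (4.61), a gene of the forearm and uterus, Hoxb7 (4.18) and Hoxc5 (4.36) were the other three. Hoxa11 was the gene just outside the filter and Hoxa2, with a highest level of 4.71, the one just inside. Of the paralogue 13 genes Hoxc13, a regulator of hair follicle and nail keratins, alone was kept. Levels of different genes come from different probe sets and were not compared with each other.

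**Figure D1:**
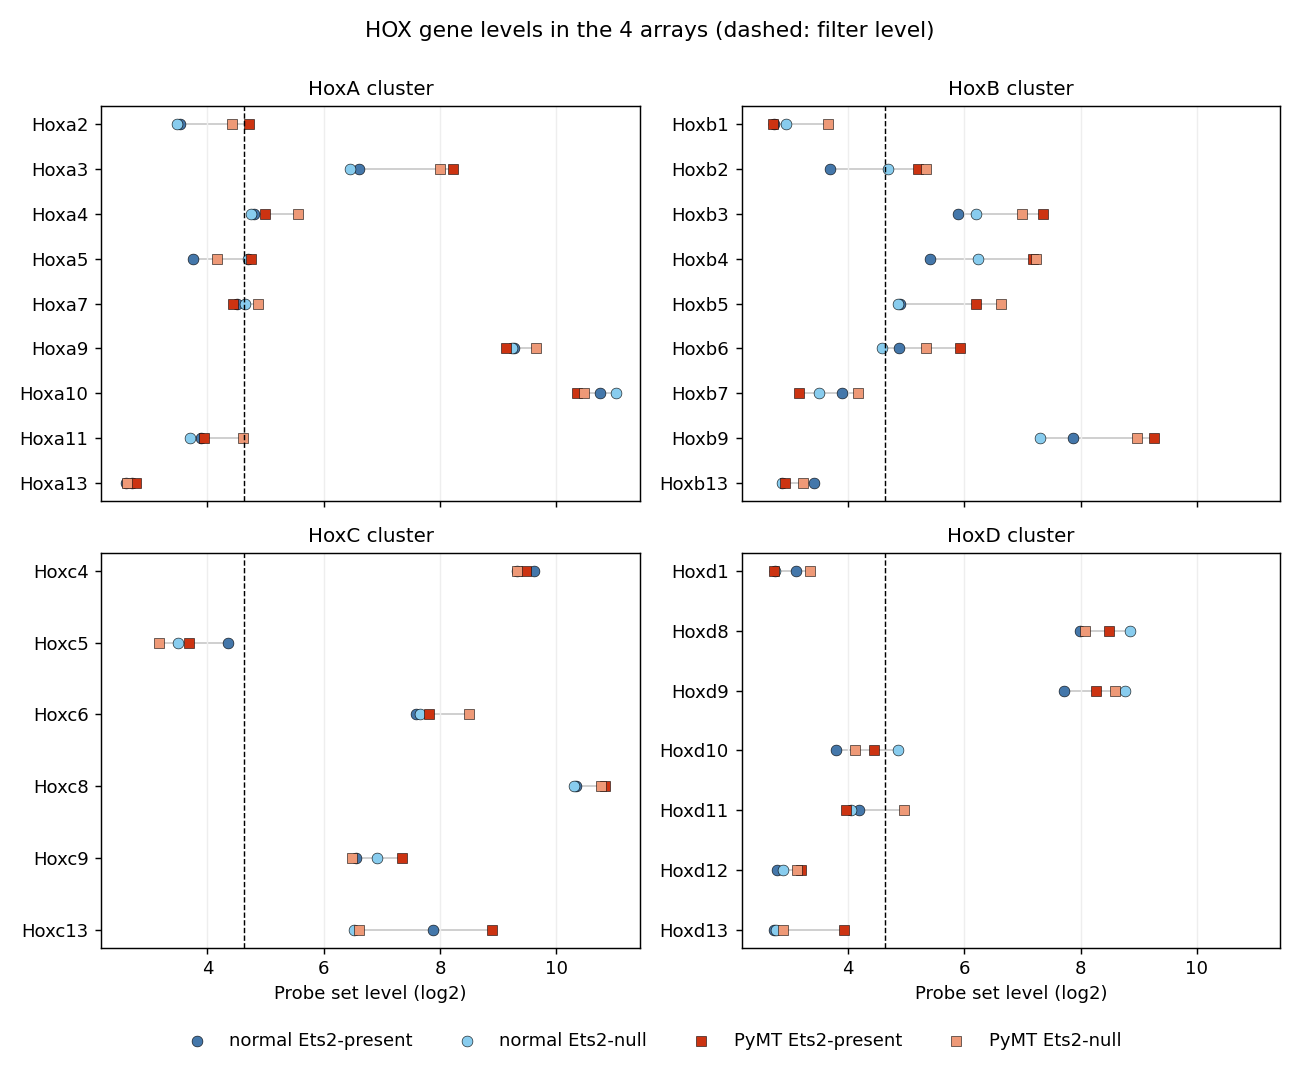
Levels (x axis, log2) of the 31 HOX genes (y axis, by cluster and paralogue number) in the 4 arrays, with 1 point per array, a grey line from the lowest to the highest array and the filter level of 4.63 as a dashed line. The kept HoxB genes have both PyMT points to the right of both normal points, and Hoxc13 has both Ets2-null points to the left of both Ets2-present points.

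The main HOX difference between PyMT and normal fibroblasts was a higher level of HoxB genes and of Hoxa3 in the PyMT arrays. With Ets2 present, 9 of 22 kept HOX genes were at least 2-fold higher in the PyMT than in the normal array, where 5.42% of all 8687 kept genes were, and 0 were 2-fold lower, against 6.2% of all. The 9 genes were Hoxa2, Hoxa3, Hoxb2, Hoxb3, Hoxb4, Hoxb5, Hoxb6, Hoxb9 and Hoxc13. Of these, Hoxa2 was kept through the PyMT Ets2-present array alone. With low values raised to the filter level, Hoxa2 and Hoxb2 fell within 2-fold. That left 7 of 22 HOX genes higher, against 3.61% of all kept genes. With levels as deposited, the median difference over kept HOX genes was 0.72, with 17 of 22 above 0. The median over all kept genes was -0.01. In Ets2-null fibroblasts 3 of 22 (Hoxa3, Hoxb5 and Hoxb9) were at least 2-fold higher in the PyMT array, where 9.69% of all kept genes were, and 0 were 2-fold lower, against 11.2%. The HOX median was 0.56 there and that of all kept genes 0.05.

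These PyMT differences with and without Ets2 share no array, so the HOX genes can be read in both. Hoxa3, Hoxb5 and Hoxb9 were 2-fold higher in both, 3 of 22 genes, where 1.98% of all kept genes were. The difference lay above 0 in both for 12 of 22 HOX genes against 31.1% of all kept genes, and below 0 in both for 2 of 22 (Hoxa10 and Hoxc4) against 29.2%. The remaining 8 HOX genes had opposite signs. Over the 22 HOX genes the Pearson correlation of these differences was 0.46, and over all kept genes it was 0.40. It is a correlation across genes, which are not replicates, and genes of 1 cluster are neighbours on a chromosome.

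**Figure D2:**
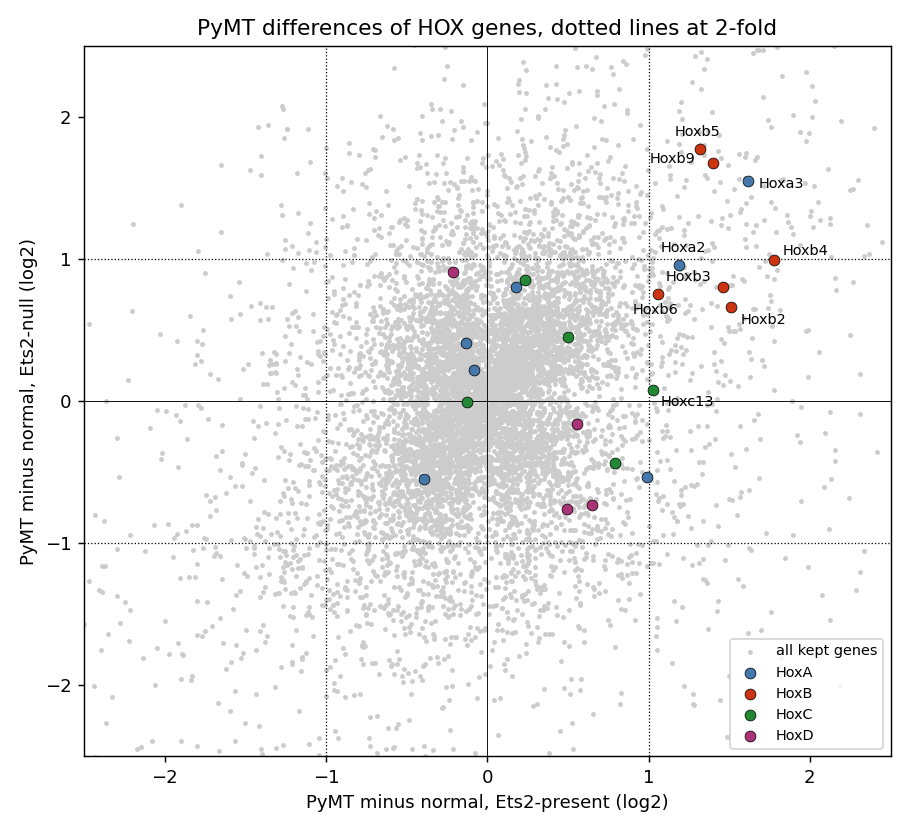
PyMT minus normal difference (log2) in Ets2-present fibroblasts (x axis) against the same in Ets2-null fibroblasts (y axis) for the 22 kept HOX genes, coloured by cluster, over all kept genes in grey, with dotted lines at 2-fold. All HoxB points and those of Hoxa2 and Hoxa3 lie in the upper right. Of the kept genes, 181 fall outside the axes, which end at 2.5, and the HOX genes are all inside.

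HoxB was the cluster in which all kept genes were higher in the PyMT arrays. The 6 genes ran from 2.08-fold to 3.43-fold higher with Ets2 present (median difference 1.43) and from 1.58-fold to 3.43-fold higher without it (median 0.90). Hoxb5, which positions the forelimb and acts in the neural crest of the gut, had levels of 4.89 in the normal Ets2-present, 4.86 in the normal Ets2-null, 6.20 in the PyMT Ets2-present and 6.63 in the PyMT Ets2-null array. Both normal arrays were within 0.03 of each other, and the PyMT arrays were 2.49-fold and 3.43-fold higher. Hoxb9, which with its paralogues Hoxa9 and Hoxd9 is needed for growth of the mammary gland at pregnancy, had levels of 7.87, 7.30, 9.27 and 8.97 in the same order of arrays. It was 2.64-fold higher in PyMT fibroblasts with Ets2 and 3.19-fold higher without. Hoxb4, known for expanding blood stem cells, had levels of 5.41, 6.24, 7.18 and 7.23. Its PyMT difference was 3.43-fold with Ets2 and 1.99-fold, just short of the 2-fold line, without, since the normal Ets2-null array was 0.84 above the normal Ets2-present one. A second Hoxb4 probe set, below the filter level in all arrays, gave PyMT differences of 0.25 and 1.12, and the mean over both probe sets moved the difference with Ets2 from 1.78 to 1.01.

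Hoxb3, a hindbrain gene, stood at 5.89 and 6.20 in the normal and at 7.36 and 7.00 in the PyMT arrays (Ets2-present first). Its PyMT difference was 1.46 with Ets2 and 0.81 without. Hoxb6, a gene of trunk mesoderm, stood at 4.88 and 4.60 in the normal and at 5.93 and 5.35 in the PyMT arrays, differences of 1.06 and 0.75. For both genes each PyMT array lay above each normal array. Hoxb2, which specifies facial motor neurons in the hindbrain, stood at 3.70 and 4.69 in the normal and 5.21 and 5.35 in the PyMT arrays. The normal Ets2-present level is below the filter level, and with such levels raised to it the difference of 1.51 with Ets2 present became 0.58. Without Ets2 the Hoxb2 difference was 0.66. A probe set shared by Hoxb8 and Hoxb7, outside the rule for members, had levels of 4.73, 4.77, 5.80 and 5.68, and thus PyMT differences of 1.07 and 0.91. Hoxb7, by its own probe set, was below the filter level in every array.

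In the HoxA cluster the genes 2-fold apart between PyMT and normal fibroblasts, each read from its brightest probe set, were Hoxa2 and Hoxa3 at the anterior end. Hoxa3, which is needed for the thymus and parathyroid, had levels of 6.60 and 6.45 in the normal and 8.21 and 8.0 in the PyMT arrays, 3.07-fold higher with Ets2 and 2.93-fold without. A second Hoxa3 probe set gave differences of 1.38 and 1.0, on the same side. Hoxa2, the selector gene of the second pharyngeal arch, had levels of 3.52, 3.47, 4.71 and 4.43. It was 2.28-fold higher in PyMT fibroblasts with Ets2, and it reached the filter level in the PyMT Ets2-present array only, so that with low values raised to the filter level this difference became 0.08. By their brightest probe sets the further HoxA genes were within 2-fold in both PyMT differences. Hoxa9 stood at 9.27, 9.24, 9.13 and 9.65 and Hoxa10, which acts in uterus and hindlimb, at 10.74, 11.02, 10.35 and 10.47. A second Hoxa9 probe set, above the filter level in all arrays, stood at 5.09, 5.16, 5.41 and 6.23, differences of 0.32 with Ets2 and 1.06 without, the latter past 2-fold. Hoxa10 was lower in each PyMT array than in each normal array, by differences of -0.39 and -0.55. The trunk genes Hoxa4 and Hoxa7 had differences of 0.18 and 0.80, and of -0.08 and 0.22. A second Hoxa4 probe set, below the filter level in all arrays, gave -0.11 and -0.26, on the other side. Hoxa5, a gene of lung and trunk, went from 0.99 with Ets2 to -0.54 without.

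HoxC and HoxD genes showed no common PyMT direction. The median PyMT difference was 0.50 with Ets2 and 0.08 without for the 5 kept HoxC genes, and 0.53 and -0.44 for the 4 kept HoxD genes. Hoxc4, which acts at the level of the neck, varied least of the kept HOX genes, with 9.61, 9.33, 9.48 and 9.32 and a range of 0.29 over the arrays. Hoxc8, which sets thoracic identity and that of motor neurons of the forelimb, stood at 10.34, 10.31, 10.84 and 10.76 and was 1.41-fold and 1.37-fold higher in the PyMT arrays. Hoxc6, a trunk gene also used in the mammary gland, was 0.23 and 0.86 higher, and its other probe sets gave 0.33 and 0.41, and 0.10 and 1.25. Hoxc9, a gene of thoracic identity, was 0.79 higher with Ets2 and 0.44 lower without. Hoxd8, Hoxd9 and Hoxd10 had the same form as Hoxc9, with differences of 0.49, 0.56 and 0.65 with Ets2 and of -0.76, -0.16 and -0.73 without. Hoxd11, a limb gene, went the other way (-0.22 and 0.91) and reached the filter level in the PyMT Ets2-null array alone.

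Read by paralogue number, the median PyMT difference with Ets2 present was largest for the anterior genes. The 4 kept anterior genes (Hoxa2, Hoxb2, Hoxa3 and Hoxb3) had a median of 1.49 with Ets2 and 0.88 without, and all 4 were above 0 in both. Hoxa2 and Hoxb2 had levels below the filter level, and with these raised to it their differences with Ets2 became 0.08 and 0.58. Without Ets2 that of Hoxa2 became 0.0. Only Hoxa3 and Hoxb3 were above the filter level in all 4 arrays. The 10 central genes had medians of 0.50 and 0.60, and the 8 posterior genes of 0.60 and -0.04. Single paralogue groups were uneven. The paralogue 3 genes had a median of 1.54 and 1.18, while the 3 paralogue 4 genes had 0.18 and 0.80, with Hoxb4 at 1.78 and Hoxc4 at -0.12 when Ets2 was present. In paralogue group 9, Hoxb9 was at 1.40 and Hoxa9 at -0.13. Among central genes with Ets2 present the median was 1.32 for HoxB, 0.18 for HoxA and 0.23 for HoxC, so that genes of like number differed by cluster. For the anterior paralogues HoxB can be set beside HoxA only, since no HoxC or HoxD gene of these was kept.

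**Figure D3:**
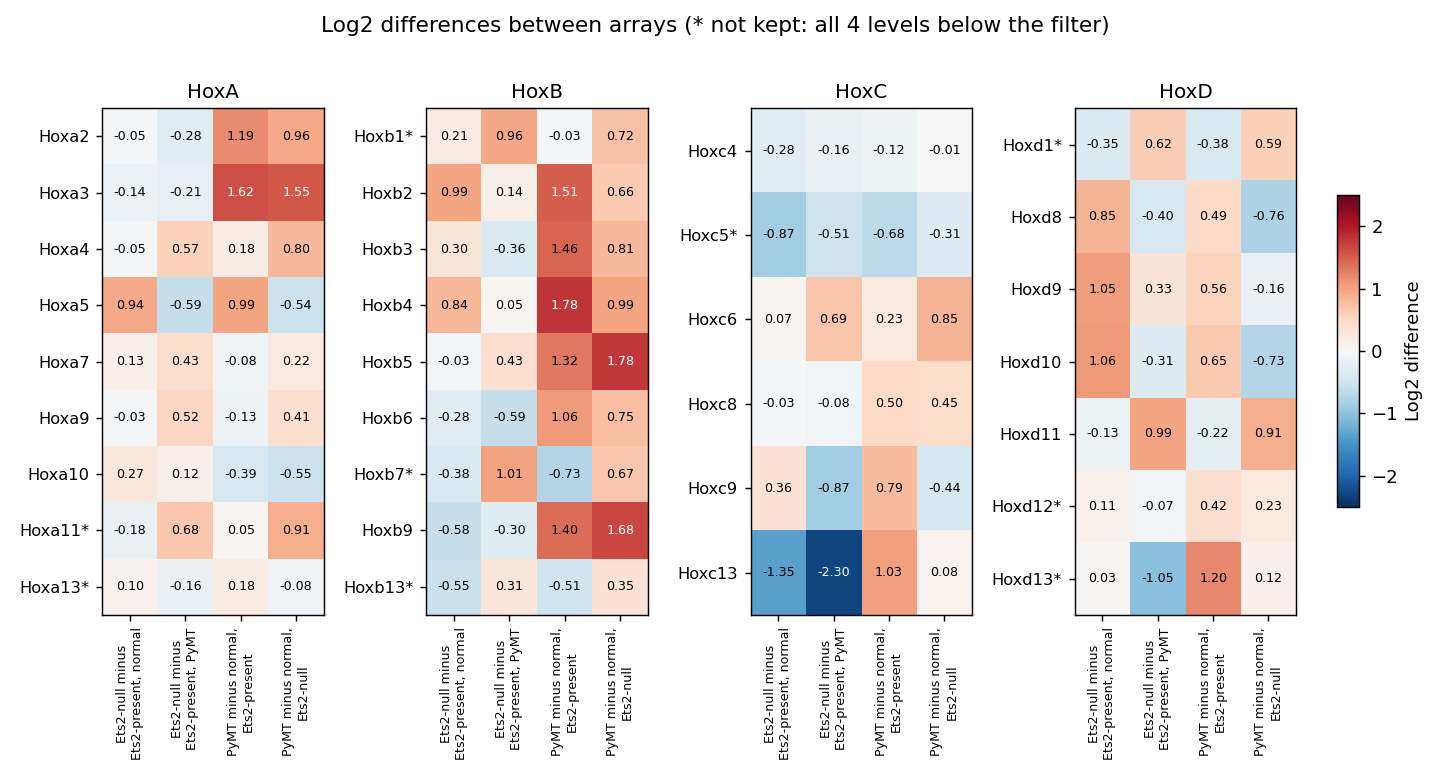
Log2 difference of each of the 31 HOX genes (rows, by cluster and paralogue number) in the 4 comparisons of arrays (columns), in colour and as the printed value, with an asterisk on genes not kept. The HoxB block is positive in both PyMT columns for every kept gene, from 0.66 to 1.78, and the darkest cell is Hoxc13 in the PyMT Ets2 column at -2.30.

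Few HOX genes were 2-fold apart by Ets2 status. In normal fibroblasts, 2 of 22 HOX genes were at least 2-fold higher in the Ets2-null array, where 3.02% of all kept genes were. There 1 was 2-fold lower, where 2.41% were. Hoxd10, 1 of the 2 higher genes, was kept through the normal Ets2-null array alone. With low values raised to the filter level, 1 HOX gene was higher, against 1.65% of all kept genes. In PyMT fibroblasts 0 were higher, against 7.64%, and 1 was lower, against 7.77%. The HOX medians were 0.02 in normal and -0.12 in PyMT fibroblasts, beside -0.02 and 0.02 for all kept genes. The median size of a HOX difference, signs left aside, was 0.28 in normal and 0.38 in PyMT fibroblasts, beside 0.23 and 0.39 for all kept genes. By that median the HOX genes lay close to the rest. Their share past 2-fold was above that of all kept genes in normal fibroblasts and below it in PyMT fibroblasts. Between the normal and PyMT backgrounds 9 of 22 HOX genes had Ets2 differences of opposite signs. The Pearson correlation of these differences was 0.32, beside -0.03 over all kept genes. The 0.32 depends strongly on 1 gene, Hoxc13, which was lowest in both differences (-1.35 and -2.30). The next lowest HOX values were -0.58 and -0.87. The correlation without Hoxc13 is not given here, so the 0.32 does not show a shared Ets2 difference of the HOX genes.

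Hoxc13 was the only kept HOX gene at least 2-fold lower without Ets2, and it was so in both backgrounds. It is 1 of 22, beside 2.41% of all kept genes in normal and 7.77% in PyMT fibroblasts. The share of all kept genes that were lower in both is not given here. The levels of Hoxc13 were 7.87 in the normal Ets2-present, 6.52 in the normal Ets2-null, 8.90 in the PyMT Ets2-present and 6.60 in the PyMT Ets2-null array. Both Ets2-null arrays were below both Ets2-present arrays, by 2.55-fold in normal and 4.92-fold in PyMT fibroblasts. The Ets2-null arrays differed by 0.08 and the Ets2-present arrays by 1.03, which puts Hoxc13 just past 2-fold higher in PyMT fibroblasts with Ets2. Hoxc13 was read by 1 probe set, and Hoxc9, the nearest kept gene of its cluster, stood at 6.56, 6.92, 7.35 and 6.48, with Ets2 differences of 0.36 and -0.87.

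Hoxd8, Hoxd9 and Hoxd10 were higher without Ets2 in normal fibroblasts, Hoxd10 at levels mostly below the filter level. Hoxd9 stood at 7.71 in the normal Ets2-present and 8.76 in the normal Ets2-null array, 2.06-fold higher, and at 8.27 and 8.60 in the PyMT arrays. Hoxd10, which acts in the hindlimb and its motor neurons, stood at 3.79, 4.86, 4.44 and 4.13, 2.09-fold higher in normal Ets2-null fibroblasts. Only the normal Ets2-null level reached the filter level, and with the others raised to it the Hoxd10 difference became 0.23. Hoxd8, a trunk gene, stood at 7.99, 8.84, 8.48 and 8.08, a difference of 0.85 in normal and of -0.40 in PyMT fibroblasts. The 4 kept HoxD genes had a median Ets2 difference of 0.95 in normal fibroblasts, with Hoxd11 at -0.13 the exception, and of 0.01 in PyMT fibroblasts. Hoxd10 and Hoxd11 each reached the filter level in 1 array only. With low values raised, their differences in normal fibroblasts were 0.23 and 0.0, so the median there rests on Hoxd8 and Hoxd9. For Hoxd8, Hoxd9 and Hoxd10, as for Hoxa5, Hoxb2 and Hoxb4, the normal Ets2-present array held the lowest of the 4 levels, and that array enters both the Ets2 difference in normal fibroblasts and the PyMT difference with Ets2.

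Several genes lay just short of 2-fold, so that the counts depend on where the line is drawn. Those nearest were Hoxb2 at 0.99 for Ets2 in normal fibroblasts, Hoxd11 at 0.99 for Ets2 in PyMT fibroblasts, Hoxa5 at 0.99 for PyMT with Ets2 and Hoxb4 at 0.99 for PyMT without. With low values raised to the filter level, 3 of these became 0.06 (Hoxb2), 0.33 (Hoxd11) and 0.11 (Hoxa5). On the lower side the nearest were Hoxb9 (-0.58), Hoxc9 (-0.87), Hoxa10 (-0.39) and Hoxd8 (-0.76) in the same order of differences. In place of replicates, the disagreement of pairs of probe sets of the same gene gives a scale for the error within an array. Over 3378 genes its SD was 0.48 and 0.68 for the Ets2 differences in normal and PyMT fibroblasts, and 0.51 and 0.70 for the PyMT differences with and without Ets2. Differences beyond that SD were found for 8, 4, 13 and 12 of the 22 HOX genes, and for 21.8%, 27.9%, 32.5% and 34.0% of all kept genes. It covers neither the culture nor the animal.

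The genes next to the clusters that are given here were within 2-fold in all differences where they were kept, except for Atf7 next to HoxC with 1 larger difference. Beyond Hoxb1 lies Cbx1, a heterochromatin protein gene, with PyMT differences of -0.13 and -0.07, and beyond Hoxb13 lies Atp5g1, a subunit of the ATP synthase, with -0.34 and -0.75. Snx11 and Calcoco2 on these sides were below the filter level. Beyond Hoxa13, Hibadh had PyMT differences of 0.42 and 0.63, and Evx1 was below the filter level. Next to Hoxc13, Atp5g2 had Ets2 differences of 0.05 and -0.10, while Atf7, a gene of a leucine zipper factor, had 0.22 in normal and -1.11 in PyMT fibroblasts. Cbx5 and Hnrnpa1, beyond Hoxc4, had Ets2 differences between -0.17 and 0.03. Around HoxD, Atp5g3, Mtx2 and Nfe2l2 had Ets2 differences in normal fibroblasts of 0.05, -0.30 and -0.31, and Evx2 was below the filter level. The order of neighbours is that of RefSeq in build GRCm38.p6.

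TALE homeodomain proteins, which bind DNA together with HOX proteins (Pbx, Meis and Pknox) or as related repressors (Tgif), showed no common direction. Of 10 on the array 8 were kept, with median PyMT differences of -0.09 with Ets2 and -0.20 without, and median Ets2 differences of -0.20 in normal and 0.28 in PyMT fibroblasts. Tgif2 stood at 7.63 and 7.13 in the normal and 5.80 and 6.08 in the PyMT arrays, lower by differences of -1.83 with Ets2 and -1.05 without. Meis1 stood at 6.12, 6.51, 5.86 and 5.26, a PyMT difference of -1.25 without Ets2 and -0.26 with it, and Pbx3 at 6.69, 6.15, 6.80 and 7.17, a difference of 1.02 without and 0.11 with. These are the only 2-fold differences of the kept TALE genes. Pbx2 (0.09 and 0.60), Meis2 (-0.90 and -0.08), Meis3 (0.20 and -0.32), Pknox1 (0.41 and -0.46) and Tgif1 (-0.33 and 0.72) stayed within 2-fold in the PyMT differences with and without Ets2.

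Few chromatin regulators of the HOX clusters were 2-fold apart. Of 24 kept Polycomb group genes, which keep HOX genes silent, 1 was 2-fold higher in the PyMT array with Ets2 (Ring1, 1.30) and 1 without (Phf1, 1.40), with medians of 0.03 and -0.14. Of all kept genes, 5.42% with Ets2 and 9.69% without were 2-fold higher. In PyMT fibroblasts Ring1 (-1.64) and Pcgf6 (-1.03) were lower without Ets2, and the median Polycomb Ets2 difference was -0.03 there and 0.05 in normal fibroblasts. Ring1 reached the filter level in the PyMT Ets2-present array alone, and with its other levels raised to it these differences became 0.48 and -0.48. Trithorax group and H3K27 demethylase genes, which keep HOX genes active, had 10 of 10 kept members below 0 in the PyMT difference with Ets2, with a median of -0.37 and 0 past 2-fold, where 50.4% of all kept genes were below 0. Their median was -0.17 without Ets2, and their median Ets2 differences were -0.09 in normal and 0.05 in PyMT fibroblasts. Men1, whose product menin works in a complex that methylates histones at HOX genes, stood at 5.86, 4.93, 5.31 and 3.62, a difference of -1.69 for Ets2 in PyMT fibroblasts and of -1.31 for PyMT without Ets2. The last of these levels is below the filter level, and raised to it the differences became -0.68 and -0.30, a check on the companion genes that was chosen after seeing the data. Of 14 genes known to act upstream of HOX genes 8 were kept, and Cdx1, Cdx2 and Cdx4 were below the filter level in all arrays. The medians of the list were 0.16 and -0.09 for PyMT with and without Ets2 and 0.04 and -0.29 for Ets2 in normal and PyMT fibroblasts. Rarb, a retinoic acid receptor gene that is itself induced by retinoic acid, stood at 4.34, 4.37, 5.81 and 4.78, 2.77-fold higher in PyMT fibroblasts with Ets2, or 2.27-fold with the normal level raised to the filter level. It was 1.03 lower on the log2 scale without Ets2 in PyMT fibroblasts, as was Zfpm1, a partner of GATA factors, by 1.14.

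Other transcription factors that mark body regions included some with larger differences than any HOX gene, in both directions. Of 44 on the array 23 were kept, and 2-fold differences numbered 3 higher and 4 lower for PyMT with Ets2 and 5 higher and 7 lower without. Of all kept genes 5.42% were higher and 6.2% lower with Ets2, and 9.69% and 11.2% without. For Ets2 there were 4 higher and 5 lower in normal and 3 higher and 4 lower in PyMT fibroblasts, and the medians of the list were -0.06 and 0.07 for Ets2 and -0.10 and 0.19 for PyMT. The shares of all kept genes for Ets2 were 3.02% and 2.41% in normal and 7.64% and 7.77% in PyMT fibroblasts. With low values raised to the filter level, Tbx1, Hand2 and Meox1 fell within 2-fold in every difference, as did Meox2 for Ets2 in normal fibroblasts. Foxc2, a mesoderm and lymphatic factor, stood at 7.96, 6.71, 10.82 and 10.89, 7.26-fold higher in PyMT fibroblasts with Ets2 and 18.2-fold without. Meox2, a factor of somites and limb muscle, stood at 4.78, 3.25, 5.61 and 6.88, 12.3-fold higher in PyMT fibroblasts without Ets2, or 4.74-fold with the normal Ets2-null level raised to the filter level. Dlx2, a factor of the branchial arches, stood at 7.48, 5.51, 9.16 and 7.99. Dlx2 was higher in both PyMT arrays (1.67 and 2.47) and lower in both Ets2-null arrays (-1.97 and -1.17). Tbx3, which is needed to form the mammary placode, stood at 9.39 and 9.46 in the normal and 7.20 and 6.91 in the PyMT arrays, 4.58-fold lower with Ets2 and 5.84-fold lower without. Tbx5, the selector of the forelimb and its body level, stood at 7.70, 8.81, 6.31 and 6.27, 2.62-fold and 5.80-fold lower in the PyMT arrays. Lhx8, a factor of facial mesenchyme, stood at 9.02, 11.51, 8.75 and 9.69, 5.61-fold higher without Ets2 in normal fibroblasts.

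**Figure D4:**
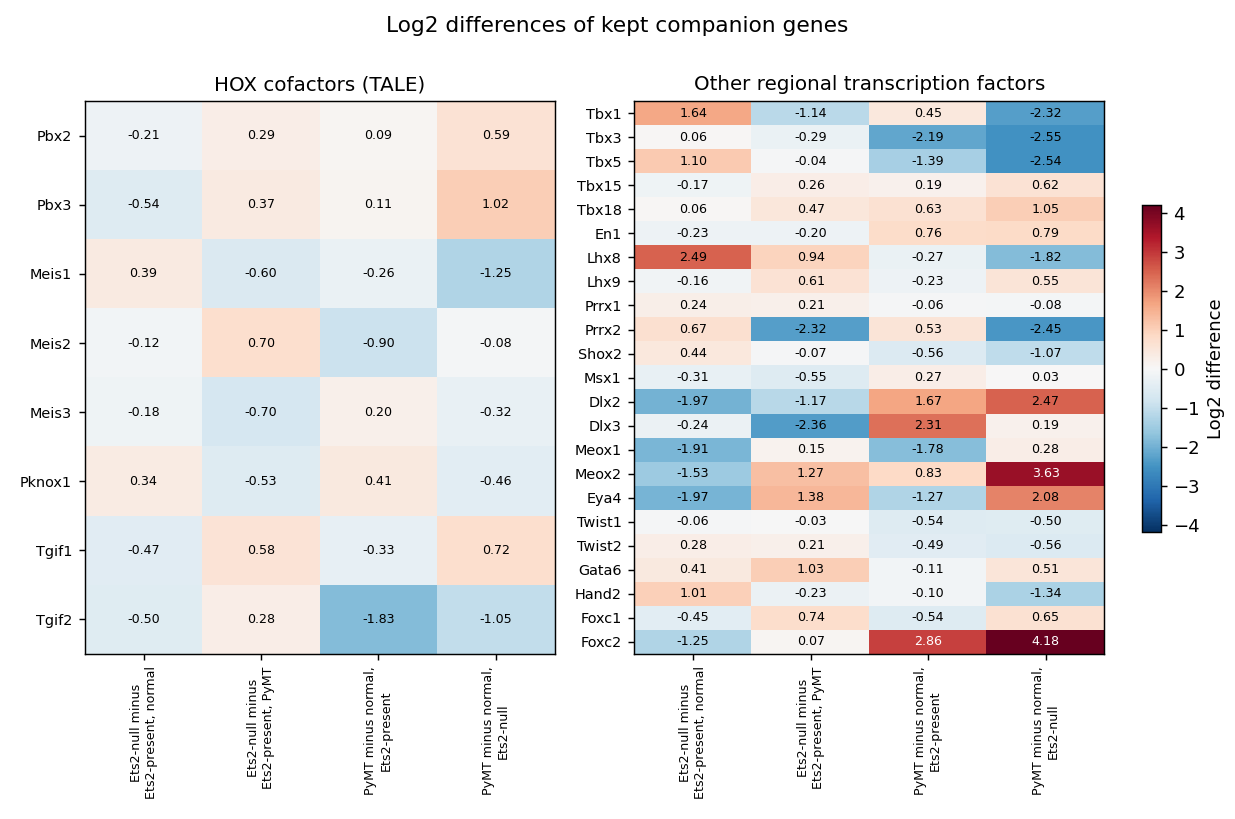
Log2 differences of the kept TALE cofactor genes (left) and of the kept regional transcription factor genes (right) in the 4 comparisons of arrays (columns), in colour and as the printed value. The TALE genes lie between -1.83 and 1.02, while Foxc2 reaches 4.18 and Tbx3 and Tbx5 stand at -2.55 and -2.54 in the last column.

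Markers of several cell types differed between PyMT and normal fibroblasts beside the HOX genes. Of all kept genes 5.42% were 2-fold higher and 6.2% lower in the PyMT array with Ets2, and 9.69% and 11.2% without. Macrophage markers, 15 of 18 kept, had a mean level of 5.25 in the normal Ets2-present, 5.22 in the normal Ets2-null, 6.38 in the PyMT Ets2-present and 5.37 in the PyMT Ets2-null array, with 9 of 15 at least 2-fold higher in PyMT fibroblasts with Ets2. In Ets2-null fibroblasts 5 were 2-fold higher and 4 lower in the PyMT array. Adipocyte markers, 4 of 9 kept with Adipoq and Lep below the filter level in all arrays, had mean levels of 7.82, 7.56, 9.44 and 9.32, and 3 of 4 were 2-fold higher in each PyMT difference. Pericyte and smooth muscle markers, 9 of 11 kept, had mean levels of 7.34, 7.14, 7.90 and 8.34, and 1 and 5 of 9 were 2-fold higher in PyMT fibroblasts with and without Ets2. Endothelial markers, 5 of 12 kept with Pecam1 and Cdh5 below the filter level, had mean levels of 5.54, 5.51, 5.45 and 5.30, and the 5 kept epithelial markers of 4.96, 4.70, 4.64 and 5.38. These means hide differences of both signs. With Ets2, 1 endothelial marker was 2-fold higher and 1 lower in the PyMT array, and without it 2 were higher and 3 lower. Of the epithelial markers 1 was higher and 1 lower with Ets2, and 3 were higher and 1 lower without. Some of these counts rest on levels below the filter level. With such levels raised to it, Epcam and Krt14 became 0.46 and 0.22 without Ets2, while Krt19 (2.57) and Krt18 (-2.09) stayed past 2-fold. The endothelial Tek and Egfl7, the macrophage Ptprc, Mrc1, Cd68 and Fcgr3 and the pericyte Des also fell within 2-fold without Ets2. With Ets2, Fcgr3 (0.46) and Mrc1 (0.63) did so. Of the 16 fibroblast markers 3 were 2-fold lower and 1 was higher in each PyMT difference, with medians of -0.10 with Ets2 and 0.22 without. The part of such cells in the HOX differences was not tested.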

How the data were processed

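RNA of cultured mammary fibroblasts was hybridised to Affymetrix mouse expression arrays, with 1 array for each of 4 groups. The deposited table holds log2 levels that the authors computed by robust multichip average (RMA), whose version is not stated in the sources used here; RMA pulls the distributions of the arrays together. Of 22690 probe sets 20393 name 1 gene, 691 several and 1606 none. Each gene was read from its probe set of highest mean, and genes with a highest level under 4.63 were left out. Differences of levels were counted at 2-fold, with 4 comparisons and no test. All HOX genes are named. Of the companion lists (TALE cofactors, Polycomb group, Trithorax group, upstream regulators, regional factors), up to 6 genes past 2-fold and all TALE genes were named, with the nearest neighbours of a cluster, of which those on 1 side of HoxA are not reported here. The HOX members and all lists, cell type markers included, were chosen with earlier results of these data known. The code was tested on simulated data. Alternatives were other filters, other probe set rules, and cyclic loess and quantile normalization (limma 3.58.1, R 4.3.3). Python 3.11.15, pandas 2.3.3, numpy 2.4.6 and matplotlib 3.10.9 were used. The number of arrays limits the precision.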

Additional observations from a re-analysis of the deposited data

Results flagged for a closer look

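For 5 kept HOX genes the Ets2 difference had opposite signs in the normal and the PyMT background and differed by more than 2-fold between them. The Ets2 difference in PyMT minus that in normal fibroblasts was -1.52 for Hoxa5, -1.38 for Hoxd10, -1.26 for Hoxd8 and -1.23 for Hoxc9, and 1.13 for Hoxd11. Each rests on 1 array per group, and none of these differences between backgrounds was tested. Hoxa5, Hoxd10 and Hoxd11 had levels below the filter level in at least 2 of the arrays. The probe set shared by Hoxb8 and Hoxb7, which the rule for members leaves out because it names 2 genes, was 1.07 higher in the PyMT than in the normal array with Ets2 present, on the side of the kept HoxB genes.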

How the results depend on the processing

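No paired analysis was possible because the labels give no replicate numbers and each group has 1 array, and no replicate could be left out. Cyclic loess and quantile normalization, applied to the RMA values, moved none of the HOX counts or medians beyond the limits set. No difference of at least 2-fold changed sign under any of the 7 alternatives. For a single gene, a change of filter or the raising of low values cannot reverse a sign, so these alternatives were no check of it. Signs did change for 8 smaller differences of single genes, the largest 0.145 in size before (Hoxa3 for Ets2 in normal fibroblasts, 0.14 without _s_at sets). Without a filter the HOX median for Ets2 in normal fibroblasts became -0.03 and the HoxD median for PyMT without Ets2 0.12, and at the 60th percentile the HoxA median for PyMT with Ets2 became -0.13. Without a filter, the Ets2 difference in PyMT fibroblasts had 1 HOX gene 2-fold higher and 2 lower, and the median PyMT difference with Ets2 was 0.49. With the filter at the 60th percentile of the table, 13 HOX genes were kept, 1 was 2-fold higher without Ets2 in normal fibroblasts, 5 were higher in PyMT fibroblasts with Ets2, and the median of the latter difference was 0.56. With values below the filter level raised to it, 1 HOX gene was higher without Ets2 in normal fibroblasts. In this setting 7 were higher in PyMT fibroblasts with Ets2, and the median PyMT differences were 0.50 with and 0.37 without Ets2. Leaving out probe sets that can match several transcripts (suffix _s_at or _x_at) gave a median Ets2 difference in normal fibroblasts of 0.13. Of the values for single genes 563 were within the limits and 9 moved, 8 of them with low values raised. Many of the 563 could not move. A change of filter leaves the difference of a kept gene as it is, and the probe set rules alter only genes with several probe sets. Of 16 gene differences past 2-fold, 3 fell under it, all with low values raised.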
